A study of Mus musculus with 34 samples.

Results

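The genes described here encode the proteins of the cytosolic ribosome of mouse liver. A gene was a member when its symbol began with Rps or Rpl followed by a number, or with Rplp. Pseudogenes, the Rps6k kinases and paralogues of the form Rpl22l1 were left out. The rule gave 75 members among 37583 gene IDs, 30 of the small subunit and 45 of the large subunit. One further gene, Rpl24, was measured in nascent RNA only, and its mRNA was not analysed here. The series examined liver of 45-day-old F1 (C57Bl6/CBA) mice that lacked, or kept, the histone H4 methyltransferase gene Setd8 (Kmt5a, PR-Set7). KO mice were Setd8 lox/lox with the Alb-Cre transgene, which drives Cre recombinase in hepatocytes. Whether other liver cells keep the gene was not examined here. WT mice were labelled wild type, and the labels do not say whether they carried the floxed allele or Cre. All mice were fed standard chow and received no treatment, except that EU mice were given 25 mg per kg of ethynyl uridine 30 min before death. Messenger RNA was sequenced in 3 KO and 3 WT libraries. Newly made RNA was sequenced in 1 KO and 1 WT library by capture of EU-labelled RNA (EU), and in 1 KO and 1 WT library by letting isolated nuclei extend their transcripts for 3 min with Br-UTP (Br).

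Ribosomal proteins, together with ribosomal RNA, build the small subunit, which reads the mRNA, and the large subunit, which joins the amino acids. Their mRNAs are short and abundant, and many begin with a run of pyrimidines, the TOP element, through which the mTOR pathway controls their translation. Some members, among them Rpl5 and Rpl11, also bind the p53 regulator Mdm2 when they are not built into ribosomes. Many members host small nucleolar RNAs in their introns and have numerous processed pseudogenes in the genome. Liver makes large amounts of secreted protein and holds many ribosomes.

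The mRNA values are scaled by the authors and summed to 18069344 to 25820906 per library. EU libraries held 5583983 (KO) and 10833287 (WT) reads in genes, and Br libraries 2317840 (KO) and 3156055 (WT). The 11 hepatocyte markers, such as Alb and Ttr, were above 0 in each mRNA library and summed to 1917954 to 2212017 in KO and 1966696 to 3285164 in WT. Setd8 mRNA was not lower in the libraries labelled KO, at 1199, 1040 and 1075, against 593, 615 and 1076 in WT (log2 fold change 0.59, limma adjusted p = 0.244; 0.87 and 0.0198 without WT replicate 3). Which part of Setd8 is removed in KO was not examined here, so whole-gene values test its loss only in part. The groups are named by their labels throughout. WT replicate 3 stood apart from the other libraries, with 20077 genes above 0 against 24497 to 26247 and a first principal component (43.9% of the variance) of 121 against -46.2 to -6.11. The main counts and medians are therefore given with and without it. Macrophage markers summed to 8704 to 20273 in KO and 5587 to 6180 in WT, and 2 of 12 rose (6 without WT replicate 3). Markers of cycling cells summed to 717 to 2728 in KO and 251 to 422 in WT, and 4 of 10 rose (6 without that library). Stellate and fibroblast markers summed to 5916 to 7827 in KO and 3688 to 5318 in WT. Of these 11, 1 rose, and without that library 2 rose and 1 fell. Cholangiocyte markers summed to 1496 to 2408 in KO and 859 to 1321 in WT (1 of 8 rose). Sums overlapped for endothelial (8355 to 8982 in KO, 7467 to 8793 in WT) and lymphocyte markers (332 to 804 in KO, 256 to 455 in WT). Erythroid sums overlapped too (17596 to 32138 in KO, 15868 to 25083 in WT). On these last 3 lists none was called with all libraries. Over all genes, 1.35% rose with all libraries and 4.74% without WT replicate 3, where 5.17% fell. Except for 1 erythroid marker, no marker on these lists was at 0 in any library, and their part in the results below was not tested. In whole liver, fewer cells of a type and less RNA per cell cannot be told apart. The labels number the replicates without saying that each is a separate animal, so each p-value rests on the spread between libraries alone, which may in part be technical.

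Runs of pyrimidines were more frequent around the annotated start sites of members than of all genes. The search did not require a run to begin at the first base of the mRNA, as a TOP element does. In RefSeq (GRCm38.p6), 55 members had an entry, and 87.3% of them held an unbroken run of at least 8 C or T on the transcribed strand within 50 bases of the start, against 39.3% of 27025 genes. Runs of at least 8 A or G, which are the same pattern on the other strand, were found in 23.6% of members and 41.1% of all genes. The following 30-base stretches were chosen after the values were seen, for 3 members that were higher and 3 that were lower in KO without WT replicate 3, with the longest C or T run in capitals.
Rps13: tgagtggcgtcaCTTCCTgtgcggcttgat
Rps23: tgggtccttcctgcaCCTCCTCTCTCTTTC
Rpl39: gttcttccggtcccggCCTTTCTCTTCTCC
Rpl5: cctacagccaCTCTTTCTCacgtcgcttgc
Rps27: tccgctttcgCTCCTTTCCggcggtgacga
Rpl37a: gcattgcgTCCCTTCCTCTTCggacttggg
The run spanned 6 bases in Rps13, 15 in Rps23 and 14 in Rpl39, and 9 in Rpl5, 9 in Rps27 and 13 in Rpl37a, so both directions of difference included long runs. The runs of Rps23 and Rpl39 reach the end of the window searched, so these lengths are minimums. The stretches lie at chr7:116334161-116334190 (minus strand) for Rps13, chr13:90923142-90923171 (plus) for Rps23, chrX:37085173-37085202 (minus) for Rpl39, chr5:107900498-107900527 (plus) for Rpl5, chr3:90213631-90213660 (minus) for Rps27 and chr1:72711275-72711304 (plus) for Rpl37a. The runs begin between base -20 (Rpl5) and base 37 (Rpl39) relative to the annotated start. They are letters in a window and were not tested as elements.

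Ribosomal protein mRNAs took a small and overlapping part of the summed values in both genotypes. Their share was 1.49%, 1.04% and 1.13% in KO replicates 1, 2 and 3, against 1.30%, 1.37% and 1.56% in WT. KO replicate 1 lay among the WT libraries, while KO replicates 2 and 3 lay below all of them. The mean share was 1.22% ± 0.235 in KO and 1.41% ± 0.131 in WT (SD, n = 3 each), and 1.34% ± 0.0503 in WT without replicate 3 (n = 2). Large subunit genes took 0.957%, 0.640% and 0.687% in KO, against 0.871%, 0.896% and 0.902% in WT. Small subunit genes took 0.529%, 0.404% and 0.440% in KO, against 0.432%, 0.478% and 0.656% in WT.

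**Figure D1:**
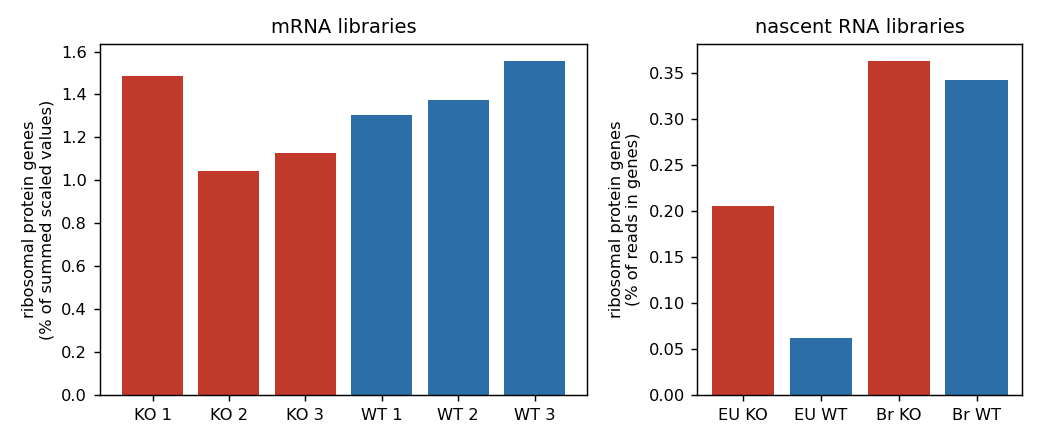
Share of each library taken by the 75 ribosomal protein genes, in percent of summed scaled values for mRNA (left) and in percent of reads in genes for nascent RNA (right). Bars are single libraries, KO in red and WT in blue. In mRNA the KO libraries ran from 1.04% to 1.49% and the WT libraries from 1.30% to 1.56%, while in EU the share was 0.206% in KO and 0.0622% in WT.

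The members differed widely in level. Per kilobase of annotated mRNA, Rplp1, a protein of the stalk that recruits elongation factors, had the highest mean scaled value, at 30655 per kb in KO and 65161 per kb in WT. Rps2, which lines the mRNA entry channel, averaged 9737 per kb in KO and 20299 per kb in WT (11720 per kb without WT replicate 3). Rpl10, a protein near the peptidyl transferase centre, averaged 9393 per kb in KO and 15663 per kb in WT (10193 without WT replicate 3), and Rps9, also at the mRNA entry, 9261 per kb in KO and 15659 per kb in WT. Rps15a was listed lowest, at 39.2 per kb in KO and 39.3 per kb in WT, but its annotated model is 5130 nt long against a median of 774 nt over members, and its 8 listed pseudogenes took 69.1% to 85.2% of the summed value of gene and pseudogenes.

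Between genotypes, 1 member passed the test and was lower in KO, and none was higher. Over all genes, 2.71% of 16813 tested were called at a limma adjusted p under 0.05, and 1.36% were called lower. At an unadjusted p under 0.05, 15 of 75 members were counted, against 20% of all genes tested, so the family's share was that of the background. The median log2 fold change was -0.23 over the members and 0.00 over all genes, with a member range from -1.47 (Rpl19) to 1.54 (Rps13). All 3 KO libraries lay below all 3 WT libraries for 12 members, against 12.8% of all genes, and above them for 1 member, against 13.2%. The log2 fold change was above 0 for 19 members and below 0 for 56, against 8441 and 8372 of all genes. Scaling all libraries to equal totals moved the median of all genes to 0.22 and that of the members to -0.01, so the members' distance below the median gene was kept.

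Rpl5, which carries 5S ribosomal RNA into the large subunit and binds Mdm2, was the member that passed. Its scaled values were 2279, 2183 and 2942 in KO, against 4507, 4721 and 4450 in WT. The groups did not overlap and the WT libraries were close to each other. Rpl5 averaged 2468 ± 413 in KO and 4559 ± 143 in WT (SD, n = 3 each), a 1.86-fold lower level in KO (log2 fold change -0.90, SE 0.19, limma adjusted p = 0.0498). The log2 difference ran from -1.03 to -0.82 when libraries were left out in turn, but of these 6 settings only that without WT replicate 3 still passed (limma adjusted p = 0.0266; over all alternatives the adjusted p ran from 6.05e-05 to 0.259). Its partner in the 5S particle, Rpl11, had values of 3865, 2663 and 3423 in KO, against 3735, 3973 and 4875 in WT (log2 fold change -0.35), and the groups overlapped.

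Large subunit members at the stalk and the exit tunnel gave the lowest fold changes. Rplp1 had values of 20866, 11591 and 13434 in KO, against 32753, 29293 and 35500 in WT. All KO libraries were below all WT libraries, with a log2 fold change of -1.13 (SE 0.26) that did not pass over the 6 libraries (limma adjusted p = 0.0631). The other stalk genes went different ways: Rplp0, the stalk base, had a log2 fold change of 0.40, Rplp2, the partner of Rplp1, -0.36, and Rpl12 -0.41, none of which passed. Rpl19, near the tunnel exit, had values of 9435, 2922 and 3470 in KO, against 14627, 15491 and 9070 in WT. KO replicate 1 lay within the WT range, and the log2 fold change of -1.47 (SE 0.44) did not pass (limma adjusted p = 0.117; called without KO replicate 1, with a log2 fold change of -1.997). Rpl35, a docking site for nascent chain factors at the exit, had values of 642, 241 and 393 in KO, against 837, 1117 and 535 in WT, and a log2 fold change of -1.01 that did not pass (limma adjusted p = 0.204). The 9 tunnel genes had a median log2 fold change of -0.28, from -1.47 to 0.44, and none was called. Their median was 0.17 without WT replicate 3, and 2 then rose (4.74% of all genes).

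At the other end of the large subunit stood Rpl29 and Rpl39, whose values turned on WT replicate 3. Rpl29, a basic surface protein, had values of 2262, 2720 and 2869 in KO, against 674, 1181 and 3773 in WT. The KO libraries lay above WT replicates 1 and 2 and below WT replicate 3 (log2 fold change 0.85, SE 0.54, limma adjusted p = 0.434). Rpl39, a small protein of the tunnel wall, had values of 905, 1234 and 1591 in KO, against 454, 699 and 2260 in WT, with the same order of libraries (log2 fold change 0.44, limma adjusted p = 0.714). Rpl10 had values of 7483, 6866 and 8167 in KO, against 7301, 8987 and 21257 in WT. One WT library set its WT mean, and its log2 fold change was -0.58 with all libraries and -0.11 without WT replicate 3.

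In the small subunit no member passed, and the median log2 fold change of its 30 genes was -0.19. The median was -0.01 without WT replicate 3, with 3 genes higher and 3 lower (4.74% and 5.17% of all genes). Rps27a, made as a fusion with ubiquitin, had the lowest value. Its libraries stood at 2218, 1575 and 2150 in KO, against 3044, 3626 and 5076 in WT, without overlap (log2 fold change -0.97, SE 0.25, limma adjusted p = 0.0788). Rps13, at the contact between the subunits, had the highest value, with 1198, 3656 and 3520 in KO, against 525, 695 and 1704 in WT. KO replicate 1 lay below WT replicate 3, so the groups overlapped (log2 fold change 1.54, SE 0.54, limma adjusted p = 0.163).

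The genes of the mRNA channel and decoding site showed how far WT replicate 3 could move a member. Rps2 had values of 11590, 7957 and 9606 in KO, against 10212, 13182 and 37380 in WT. Rps9 had 9672, 5389 and 5803 in KO, against 10223, 10283 and 14773 in WT, without overlap. Rps23, which reaches into the decoding centre, had 711, 727 and 1123 in KO, against 230, 312 and 2489 in WT. For Rps2 and Rps23 the WT library that stood apart was far above its fellows. The log2 fold changes over 6 libraries were -0.84 for Rps2, -0.79 for Rps9 and 0.56 for Rps23, none of which passed. Over these 5 genes (with Rps3 and Rps15) the median was -0.46, and over the 8 genes of the head and beak it was -0.35. These medians were -0.27 and -0.19 without WT replicate 3, and the log2 fold change of Rps2 was -0.27.

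**Figure D2:**
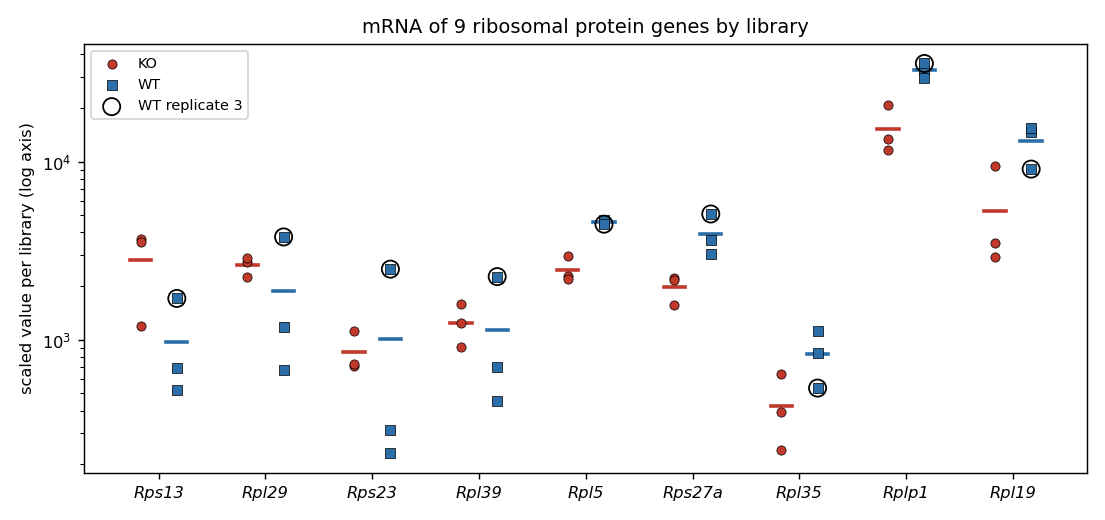
Scaled mRNA value (log axis) of 4 members with high and the 5 with the lowest log2 fold change, per library, with KO (red circles) left of WT (blue squares), group means as bars and WT replicate 3 ringed. WT replicate 3 lies above the other WT libraries for Rps13, Rpl29, Rps23 and Rpl39, while for Rpl5 the 3 WT libraries lie together above all KO libraries (2183 to 2942 in KO, 4450 to 4721 in WT).

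WT replicate 3 was the highest of the 6 libraries for 43 of 75 members. Its value relative to the mean of the other WT libraries had a median of 1.44 over the members and ran from 0.0995 (Rpl37a) to 9.18 (Rps23), with a ratio of at least 2 in 24 members. KO replicate 2 was the lowest library for 37 members and WT replicate 1 for 26. Libraries thus differed in their ribosomal protein mRNAs within genotypes as well as between them. WT replicate 3 also had the highest summed value over all genes, at 25820906 against 18069344 to 20480357. The same counts over all genes are not given here, so these counts cannot be read as particular to the family.

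Without WT replicate 3, 7 members were higher in KO and 6 were lower. Over all genes 9.91% were then called, 4.74% higher and 5.17% lower. The median member had a log2 fold change of -0.11. The groups did not overlap for 15 members with KO above (22.2% of all genes) and 19 with KO below (23.5%). The members named from these 13 were chosen after their values were seen. Rps13 rose most (log2 fold change 2.04, SE 0.47, limma adjusted p = 0.0401; 0.000339 to 0.486 over all alternatives). Rps23 rose by 1.64 (SE 0.25, limma adjusted p = 0.0111, range 0.0111 to 0.965), and Rpl29 by 1.54 (SE 0.25, limma adjusted p = 0.0138, range 0.000987 to 0.768). Rpl39 (1.10), Rpl23a of the tunnel rim (0.89) and Rpl32 (0.80) rose too. Among those that fell, Rpl37a, a zinc-binding protein of the large subunit, had the lowest value, at 1177, 601 and 1060 in KO, against 4004, 2731 and 335 in WT. Its WT replicates 1 and 2 lay above all KO libraries and WT replicate 3 below them, so the log2 fold change was -1.86 without that library (SE 0.31, limma adjusted p = 0.0141, range 0.00485 to 0.969) and -0.76 with it. Rplp1 (-1.06), Rps27 (-1.01), Rpl5 (-0.91), Rps29 (-0.86) and Rps14 (-0.83) fell too. Rps27, Rps14 and Rpl5 are on the list of Mdm2-binding proteins, of which 3 of 12 were lower and none higher without WT replicate 3, against 1 of 12 lower with all libraries.

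**Figure D3:**
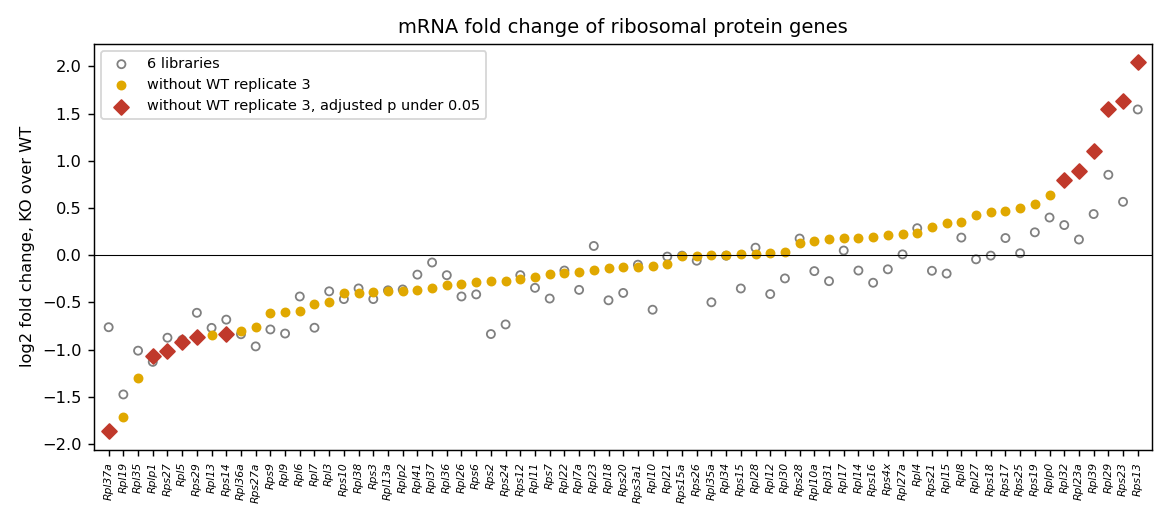
Log2 fold change of mRNA (KO over WT) of 71 of the 75 ribosomal protein genes, ordered by the value without WT replicate 3; open circles use all 6 libraries, filled points leave out WT replicate 3, and red diamonds had a limma adjusted p under 0.05 without it. Values without WT replicate 3 ran from -1.86 (Rpl37a) to 2.04 (Rps13), and most lay between -1 and 1.

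Read assignment between a gene and its processed copies limits these values. In the mRNA table, 54 members had at least 1 named pseudogene. Without WT replicate 3, 7 of these 54 rose and 4 fell, against 4.74% and 5.17% of all genes. All 7 members that rose were thus among them. Of the 21 members without a named pseudogene, none rose and 2 (Rps14 and Rpl37a) fell. With so few genes, these counts cannot show whether calls go with having a copy. Which reads the counting gave to gene or copy is not given in the sources used here, so levels of members with copies are uncertain. With named copies added to the gene, log2 differences without WT replicate 3 were 1.60 for Rps13, 1.64 for Rps23, 1.53 for Rpl29 and 1.27 for Rpl39. They were -0.81 for Rpl5, -1.06 for Rplp1 and -0.98 for Rps27. Copies took 29.6% to 61.9% of that sum for Rps13, 12.6% to 28.4% for Rpl5 and 0.120% to 0.954% for Rps23. Summed over the family, the 187 pseudogenes reached 13.3%, 18.9% and 15.2% of the members' summed value in KO, against 11.8%, 8.16% and 8.32% in WT. Every KO library lay above every WT library in this ratio. Of 132 pseudogenes tested, 3 rose and 1 fell (1.35% and 1.36% of all genes), and their median log2 fold change was 0.56, against -0.23 for the members. Without WT replicate 3, 26 rose and 2 fell (4.74% and 5.17% of all genes).

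**Figure D4:**
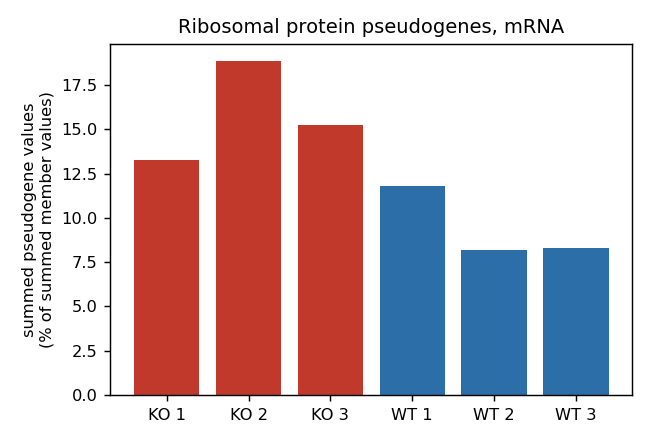
Summed scaled values of 187 ribosomal protein pseudogenes in each mRNA library, in percent of the summed values of the 75 members; bars are single libraries, KO in red and WT in blue. The KO libraries ran from 13.3% to 18.9% and the WT libraries from 8.16% to 11.8%.

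Other genes that make or serve ribosomes showed few calls with all libraries, where 2.71% of all genes were called. Of 76 mitochondrial ribosomal protein genes tested none was called, with a median log2 fold change of -0.05. None was called among 20 TOP mRNAs of translation (median -0.10), 25 initiation factors (-0.11), 11 RNA polymerase I genes (-0.18), 14 small nucleolar RNP and nucleolar proteins (-0.31), 36 assembly factors of the small subunit (-0.08) and 22 genes of growth signalling such as Mtor and Myc (-0.07). Without WT replicate 3, where 9.91% of all genes were called, 4 mitochondrial ribosomal protein genes were higher and 2 lower. On the same basis 1 TOP mRNA, 2 initiation factors and 2 growth signalling genes were lower, 1 RNA polymerase I gene was higher and 1 lower, and 2 small subunit assembly factors were higher and 1 lower. Of 34 assembly factors of the large subunit, 1 fell. This was Gtpbp4, a nucleolar GTPase, at 551, 464 and 518 in KO, against 893, 941 and 1061 in WT, without overlap (log2 fold change -0.92, SE 0.17, limma adjusted p = 0.0377). Of 7 host genes of small nucleolar RNAs, Gas5, a TOP transcript that encodes no protein, rose 2.56-fold, at 780, 580 and 640 in KO, against 312, 284 and 193 in WT (log2 fold change 1.36, SE 0.24, limma adjusted p = 0.0308). Without WT replicate 3 both genes still passed, with a limma adjusted p of 0.0234 for Gtpbp4 and 0.0151 for Gas5. Among 10 readouts of p53, Cdkn1a and Phlda3 rose, by log2 values of 5.31 and 4.27 (limma adjusted p = 0.0108 and 0.0462). Without WT replicate 3 Cdkn1a passed (limma adjusted p = 0.0167) and Phlda3 did not (0.0737). Mdm2 itself had 866, 970 and 672 in KO, against 599, 508 and 514 in WT, a log2 fold change of 0.62 that did not pass (limma adjusted p = 0.141).

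Nascent RNA has 1 library per genotype and method, so no replicate check is possible, and intervals cover counting error only. In EU, ribosomal protein genes took a larger share of the reads in KO. They held 11480 reads (0.206%) in KO and 6741 reads (0.0622%) in WT, a 3.30-fold higher share. In Br they held 8417 reads (0.363%) in KO and 10788 reads (0.342%) in WT, a ratio of 1.06. Some markers of other cells moved in the same EU libraries. Past 1.5-fold above lay 7 of 8 stellate and fibroblast markers, 5 of 6 cholangiocyte markers and 6 of 8 cycling cell markers (28.7% of all genes). Other lists were mixed: of 11 macrophage markers 5 lay above and 3 below, of 10 endothelial markers 4 above and 1 below, and of 5 lymphocyte markers 1 above and 2 below. Hepatocyte markers held 2.37% of EU reads in KO and 4.16% in WT, and erythroid markers 0.229% in KO and 0.0139% in WT. The 1 erythroid marker with an EU ratio of RPKM went the other way (-5.22). Their part in the family's EU difference was not tested. Rps12, Rpl8, Rpl21, Rps3 and Rpl6, picked as the members with most EU reads in KO, held 50.2% of the members' reads in KO and 16.4% in WT. The share of the other members was 1.97-fold higher in KO, a value lowered by that choice. A small RNA is annotated within Rps12, Rpl21, Rps3 and Rpl6 and not within Rpl8, and the part of such RNAs in these reads was not tested.

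Counted by gene, the centred log2 ratio of RPKM plus 0.5 had a median of 0.51 in EU and 0.05 in Br over 74 members with Rpl24. In EU, 34 members lay past 1.5-fold above and 11 below, against 28.7% and 29.4% of 13494 genes. In Br, 10 lay above and 4 below, against 17.7% and 16.2%. Both methods placed 5 members above and 1 below, against 7.21% and 5.88% of all genes. Small subunit genes had a median EU ratio of 0.78 (28 genes, 18 past 1.5-fold above and 2 below), and large subunit genes 0.36 (45 genes, 15 above and 9 below). Of the 9 tunnel genes, 6 lay below and none above in EU. Genes with an annotated small RNA within them had a median EU ratio of 0.49 (29 genes) and those without one 0.52 (44 genes).

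Rps12, a protein of the small subunit beak, had the highest ratio. It held 1670 reads in KO and 54 in WT in EU, a centred log2 ratio of reads of 5.86 (95% interval 5.47 to 6.28), and 174 reads in KO and 145 in WT in Br, a ratio of 0.71 (0.38 to 1.04). Both methods thus placed KO above WT, by very different amounts, and the mRNA log2 fold change was -0.21. Rpl6 held 624 EU reads in KO and 94 in WT (3.64, interval 3.33 to 3.97), and 71 Br reads in KO and 94 in WT (0.04, interval -0.42 to 0.50). Rpl8, a core protein near the peptidyl transferase centre, held 1435 EU reads in KO and 253 in WT (3.42, interval 3.22 to 3.62), and 114 Br reads in KO and 141 in WT (0.14, interval -0.23 to 0.51). For both genes the EU interval lay above 0 and the Br interval included it. Rpl5, lower in KO mRNA, held 303 EU reads in KO and 105 in WT (2.44, interval 2.12 to 2.78), and 122 Br reads in KO and 115 in WT (0.53, interval 0.15 to 0.91). Its nascent RNA and its mRNA therefore stood on opposite sides of 0.

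Among members with at least 20 reads over both genotypes in each method, those reported here with the lowest mean of EU and Br ratios were of the large subunit. In EU alone, small subunit genes also had low ratios of RPKM, down to -1.91. Rpl17, which lines the tunnel, held 10 EU reads in KO and 37 in WT (-0.98, interval -2.15 to 0.06), and 17 Br reads in KO and 48 in WT (-1.05, interval -1.94 to -0.23). It was the member that lay past 1.5-fold below in both methods. Rpl18, a large subunit protein, held 36 EU reads in KO and 103 in WT (-0.60, interval -1.19 to -0.04), and 158 Br reads in KO and 309 in WT (-0.52, interval -0.81 to -0.24). Rpl9 held 3 EU reads in KO and 52 in WT (-3.20, interval -5.53 to -1.58), and 422 Br reads in KO and 466 in WT (0.30, interval 0.11 to 0.50), so the methods gave opposite signs. In mRNA the log2 fold changes were 0.05 for Rpl17, -0.48 for Rpl18 and -0.83 for Rpl9, and none passed. Rpl24, a protein of the subunit interface, had 162 RPKM in KO and 105 RPKM in WT in EU, and 74.0 RPKM in KO and 73.1 RPKM in WT in Br.

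**Figure D5:**
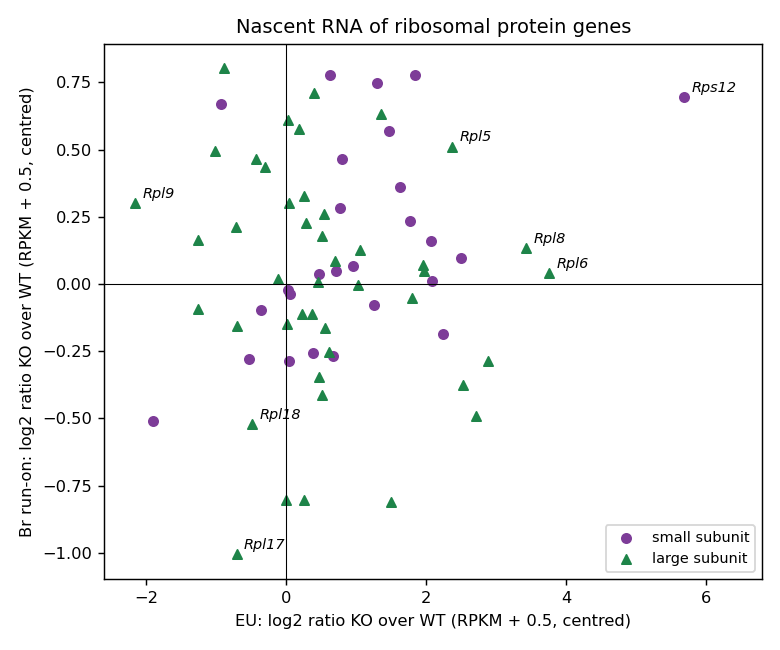
Centred log2 ratio of RPKM plus 0.5, KO over WT, of ribosomal protein genes in EU (horizontal axis) and Br (vertical axis), with small subunit genes as circles and large subunit genes as triangles; each point compares 1 library per genotype. The EU ratios spread from -2.16 (Rpl9) to 5.68 (Rps12) along the horizontal axis, and the lowest Br ratio shown is -1.01 (Rpl17).

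Across 73 members with all readouts, the orders of the genes were not alike. Spearman's rho was 0.03 between the mRNA and EU differences, -0.10 between mRNA and Br, and 0.07 between EU and Br. These are descriptions across genes that share libraries. EU reads over both genotypes ran from 7 to 1839 per member with a median of 126, and Br reads from 32 to 888 with a median of 210, so ratios of the lowest members rest on few reads.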

How the data were processed

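Of 34 samples, 10 RNA libraries were analysed, and the 24 chromatin and input samples were not used here. Values for mRNA are a score: whole numbers that the authors scaled between libraries with DESeq, per the labels. The submitters' processing notes also name TopHat2, Bowtie2, Cufflinks and genome mm9. How reads were assigned to genes, and whether by strand, is not given in the sources used here. For nascent RNA the deposited values are raw counts for each gene. The Br counts were all even and were taken as 2 per read. The authors' deposited RPKM table served for nascent ratios, but not for levels between genes, because its implied gene lengths are unreliable. Symbols came from GENCODE, which named 32860 of 37583 IDs. Coordinates of printed sequences are RefSeq's (GRCm38.p6), not those of mm9.

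Messenger RNA was tested with limma 3.58.1 (R 4.3.3; lmFit, then eBayes with both trend and robust set). Scaled values plus 1 were log2 transformed, and the 16813 genes that reached 10 in 3 or more libraries were kept. The test was two-sided, with Benjamini-Hochberg adjustment and a threshold of 0.05. It was tested on simulated data. Fold changes are on the value plus 1 scale. Nascent ratios used RPKM plus 0.5 over the 13494 genes whose mean RPKM reached 1, with the median gene set to 0 (-0.07 in EU before centring). Ratios with intervals use reads, with exact Clopper-Pearson bounds at 95% (scipy 1.17.1). Per-kilobase levels divide scaled values by the annotated length of 1 transcript per gene.

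The symbol rule taken to the letter would add 5 genes: 2 retrogenes, 2 genes annotated as pseudogenes and 1 binding protein. These were left out. Members, lists and the alternatives were chosen with earlier results of these data known. Members named were those called, the 5 highest and 5 lowest in mRNA fold change, the 5 of highest mean value and the 4 highest and 4 lowest in nascent ratio with at least 20 reads per method; a few of these are not reported here. Members named by role, and calls without WT replicate 3, were chosen after their values were seen. Alternatives were other pseudocounts, filters and scalings (TMM from edgeR 4.0.16, equal totals), array weights, a replicate block, a 2-fold minimum, members without a pseudogene and each library left out. For nascent RNA they were other pseudocounts, RPKM floors, no centring, counts in place of RPKM and 2-fold. No pair of mRNA libraries held equal values in more than 1.85% of genes.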

Additional observations from a re-analysis of the deposited data

How the results depend on the processing

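Calls of ribosomal protein genes depended on the setting. The members' median log2 fold change (-0.23) was below that of all genes in each setting run, but its distance from the median gene moved between -0.12 (without WT replicate 3) and -0.40 (without WT replicate 1). With 1 member called in the report, the count was 0 with a pseudocount of 0.5, TMM scaling or equal library totals, and 2 without a filter. It was 47 with array weights (9 higher, 38 lower) and 5 with the replicate block (1 higher, 4 lower). A 2-fold minimum, and members without a named pseudogene, also gave 0. Both outcomes were fixed in advance, because Rpl5 differed by less than 2-fold and has 2 named pseudogenes. Leaving out libraries gave 0 to 13: 13 without WT replicate 3, 1 without KO replicate 1 (Rpl19 in place of Rpl5) and 0 without KO replicate 2 or 3 or WT replicate 1 or 2. Over all genes, 455 calls became 8410 with array weights, 1014 with the replicate block and 28 to 1666 with libraries left out (111, 28 and 290 without KO replicates 1, 2 and 3, and 154, 52 and 1666 without WT replicates 1, 2 and 3). The 8 calls on the companion and pseudogene lists became 15 with equal totals, 214 with array weights, 24 with the replicate block and 1 to 50 with libraries left out (2 and 1 without KO replicates 1 and 2, and 4, 1 and 50 without WT replicates 1, 2 and 3). Whether the replicate numbers pair the libraries is not settled: deviations of same-numbered libraries from their group means correlated at 0.41, -0.24 and 0.20. Libraries with different numbers gave -0.39 to 0.27. With 3 libraries per group, such values cannot decide it. In nascent RNA a 2-fold limit left 29 members in EU, against 45 past 1.5-fold, and 2 in Br, against 14. Of 252 values of 18 named members, 214 kept direction and side of the threshold, 25 gained a call, 8 lost one and 5 reversed: Rps12 to a log2 fold change of 0.0101 with equal totals, Rps23, Rpl39 and Rpl17 without WT replicate 1, and Rpl17 also without KO replicate 1 (-0.0174). With libraries left out, log2 fold changes ran from -0.0800 to 1.64 for Rps23, from -0.0742 to 0.178 for Rpl17 and from -0.0535 to 1.10 for Rpl39. The cause of these changes was not tested, and fewer libraries enter each fit with one left out. The symbol rule applied to the letter, and the alternatives for the companion lists and for the share, were added after the data were seen. Depth and the lack of a replicate limit the EU ratios, with as few as 7 reads per member.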

Other observations

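Single pseudogenes of Rps15a moved in opposite directions. Rps15a-ps8 had scaled values of 3, 5 and 6 in KO, against 192, 141 and 237 in WT (log2 fold change -5.08, SE 0.40, limma adjusted p = 0.00355). Rps15a-ps4 had 193, 217 and 175 in KO, against 58, 61 and 40 in WT (log2 fold change 1.88, limma adjusted p = 0.0168), and Rps15a-ps3 had 144, 184 and 180 in KO, against 57, 46 and 57 in WT (1.65, limma adjusted p = 0.0208). None of the 3 overlapped between groups, while Rps15a itself stood at 176, 198 and 230 in KO, against 181, 225 and 199 in WT. Rpl13-ps6 also rose, at 354, 302 and 343 in KO, against 108, 123 and 137 in WT (log2 fold change 1.44, limma adjusted p = 0.0168), beside Rpl13 at 4469, 2717 and 3112 in KO, against 6966, 5251 and 5125 in WT.

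Some ribosomal proteins have symbols outside the rule, and none of those named here was called. Rack1, a scaffold on the small subunit, stood at 6219, 6825 and 7762 in KO, against 4396, 4545 and 5228 in WT, without overlap (log2 fold change 0.55, limma adjusted p = 0.153). Fau had a log2 fold change of 0.39 and Rpsa -0.30. Rpl39l, a paralogue of Rpl39, was too low to test, with 0, 1 and 1 in KO, against 7, 5 and 7 in WT.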
